A study of Mus musculus with 12 samples.

Results

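The genes described here were the 8 measured members of a family of Trim genes on mouse chromosome 7: Trim30a, Trim30b, Trim30c, Trim30d, Trim5, Trim12a, Trim12c and Trim34a. They were chosen by symbol from the 54232 gene identifiers of the count table. The cluster itself was selected on values of these data, because Trim30a had been seen to be lower and Trim5 higher in mutant CD8 T cells than in wild type CD8 T cells. That contrast is therefore given as a description without a test, and p-values are given only for comparisons that the choice did not use. All 8 genes had a mean normalised read count of at least 10, the filter for testing, which 13279 genes passed. Trim30b, Trim30c and Trim5 owed much or all of that mean to some of the libraries.

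Each library held RNA from 300 sorted cells. NK cells were sorted as CD3ε-negative and NK1.1-positive and CD8 T cells as CD3ε-positive and CD8a-positive, both among CD45-positive cells. The cells came from tumors that had grown for 8 to 10 days after MC38 cells, a mouse colon adenocarcinoma line, were injected under the skin. The mice were 6 to 12 weeks old, on the C57BL/6N background, and either wild type (WT), Tyk2-/- (KO, B6N.129P2-Tyk2tm1Biat) or homozygous for a Tyk2 allele whose protein lacks kinase activity (KE), with 2 libraries in each of the 6 groups. No mouse received an agent other than the tumor cells. The mutant mice carry their allele in every tissue, so hosts as well as sorted cells were mutant. The mutant lines were bred in Vienna and WT mice were originally bought from a supplier, so genotype and mouse colony cannot be told apart. Whether the 2 libraries of a group came from separate mice is not given in the sources used here, so p-values measure only the spread between libraries.

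Total counts per library lay between 10378761 and 14732882. At these totals a count of 0 allows a level of up to 3 counts, or 0.219 to 0.275 CPM (read counts relative to TMM-adjusted library totals), for counting error only. The T cell markers summed to 9431 to 12459 CPM in CD8 libraries and to 42.2 to 317 CPM in NK libraries, and NK markers to 2360 to 4784 CPM in NK libraries and 5.15 to 45.1 CPM in CD8 libraries. Tyk2 transcripts overlapped between the genotypes (at 48.6 to 86.6 CPM in CD8 WT and 47.0 to 74.2 CPM in the CD8 mutants), so KO and KE below mean libraries labelled so.

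TRIM proteins are ubiquitin ligases with a RING finger, a B-box and a coiled coil, and many of them act in innate defence. Type I interferon binds a receptor that TYK2 and JAK1 serve, and its signal reaches target genes through the interferon-stimulated response element (ISRE) of their promoters. Trim30a is a mouse interferon-stimulated gene known as a brake on Toll-like receptor signaling through TAB2 and TAB3. Trim30d encodes a restriction factor of some flaviviruses. Trim5, Trim12a and Trim12c are the mouse relatives of primate TRIM5, a factor that blocks incoming retroviral capsids, and Trim34a is related to primate TRIM34.

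The 8 genes lie within 263 kb of chromosome 7 (GRCm38, chr7:104244457-104507849), a stretch with 16 annotated genes, 9 of them protein coding. Trim34a (ENSMUSG00000056144, 104244457 to 104262234) is on the plus strand, and the other 7 are on the minus strand. These are Trim5 (ENSMUSG00000060441, 104263386 to 104288094), Trim12a (ENSMUSG00000066258, 104299894 to 104315466), Trim12c (ENSMUSG00000057143, 104338754 to 104353362), Trim30b (ENSMUSG00000052749, 104355382 to 104369884), Trim30c (ENSMUSG00000078616, 104382065 to 104400837), Trim30a (ENSMUSG00000030921, 104409025 to 104465193) and Trim30d (ENSMUSG00000057596, 104470014 to 104507849). The exons of Trim5 and Trim12c each overlap 1 small RNA gene on the same strand, over 108 and 100 bases. The exons of Trim34a overlap those of an antisense gene, Gm47248, over 609 bases. Strand was not stated for the counting, so reads from Trim34a and Gm47248 cannot be told apart there.

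The stretches before the gene starts are shown because Trim30a and Trim30d, and likewise Trim5 and Trim12c, are near copies of each other there. RefSeq gives a window of 250 bases before to 50 bases after each start (GRCm38.p6), and all 8 genes matched by symbol. Trim30a has a second window, farther into the gene, which is not printed. The part before the start is printed 5′ to 3′ for 4 members, with matches to the ISRE core GAAANNGAAA on either strand in capitals. Trim30a is chr7:104465194-104465443, Trim30d chr7:104507850-104508099, Trim5 chr7:104288107-104288356 and Trim12c chr7:104353363-104353599, all on the minus strand. The Trim12c stretch has 237 bases, because the bases nearest its RefSeq start lie within the gene as GENCODE annotates it and are left out.
Trim30a: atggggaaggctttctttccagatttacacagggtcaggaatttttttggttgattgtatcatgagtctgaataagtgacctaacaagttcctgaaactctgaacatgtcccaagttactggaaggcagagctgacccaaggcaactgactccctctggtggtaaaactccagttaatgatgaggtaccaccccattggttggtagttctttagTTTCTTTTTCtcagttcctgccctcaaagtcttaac
Trim30d: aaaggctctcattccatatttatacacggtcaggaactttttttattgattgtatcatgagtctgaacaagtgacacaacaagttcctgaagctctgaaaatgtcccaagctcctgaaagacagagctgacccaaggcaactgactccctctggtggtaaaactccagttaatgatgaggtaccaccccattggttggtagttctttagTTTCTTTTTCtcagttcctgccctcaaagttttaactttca
Trim5: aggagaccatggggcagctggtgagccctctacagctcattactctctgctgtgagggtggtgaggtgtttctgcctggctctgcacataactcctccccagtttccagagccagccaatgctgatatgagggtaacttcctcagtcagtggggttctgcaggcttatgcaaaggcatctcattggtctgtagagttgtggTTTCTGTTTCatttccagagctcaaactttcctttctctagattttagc
Trim12c: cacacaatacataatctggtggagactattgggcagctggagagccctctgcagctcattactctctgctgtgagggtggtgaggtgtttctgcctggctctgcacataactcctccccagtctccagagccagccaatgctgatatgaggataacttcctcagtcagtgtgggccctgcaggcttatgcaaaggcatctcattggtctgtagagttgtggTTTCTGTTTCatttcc

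The Trim30a and Trim30d windows were 93.6% identical over 295 aligned positions, and both hold the match TTTCTTTTTC, at 36 and 41 bases before the start. The Trim5 and Trim12a windows were 100% identical over the positions at which they aligned, and Trim5 and Trim12c over 93.6% of 281. Their common match, TTTCTGTTTC, begins 49 bases before the start in Trim5, 29 bases before it in Trim12c and at base 11 after it in Trim12a. A core match was present in 6 of the 8 members, Trim34a included, and absent from the windows of Trim30b and Trim30c. The Trim30b window (before its RefSeq start chr7:104358647-104358896) lies within the gene as GENCODE annotates it. The sequence before the GENCODE start of Trim30b, at 104369884, was thus not searched. Of all 32851 RefSeq windows of this length, 3.44% hold one. The members share sequence, so their matches are not independent, and a match in letters is not a measured binding site.

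Since the counts cover only reads that aligned to 1 place, similar copies lose reads. No genome sequence was used here, so the share of own sequence was measured among annotated transcripts: distinct stretches of 50 bases, the read length, that occur in the transcripts of no other gene on either strand. The share does not cover sequence outside annotated transcripts. It was above 90% in the Trim30 group, with 93.5% for Trim30a, 92.4% for Trim30d, 98.5% for Trim30b and 99.3% for Trim30c. Trim30a and Trim30d shared 243 stretches with each other. The share was 63.4% for Trim5, 66.3% for Trim12c and 79.2% for Trim12a, and Trim5 and Trim12c had 889 stretches in common. Trim34a had the lowest share, 40.3%, with 1049 stretches that also occur in its neighbour Trim34b and 532 in Gm47248. The latter overlaps Trim34a at the same place, so that such stretches are shared between annotations and not between copies. Levels of the Trim5 and Trim12 genes and of Trim34a may thus be undercounted more than those of the Trim30 genes.

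**Figure D1:**
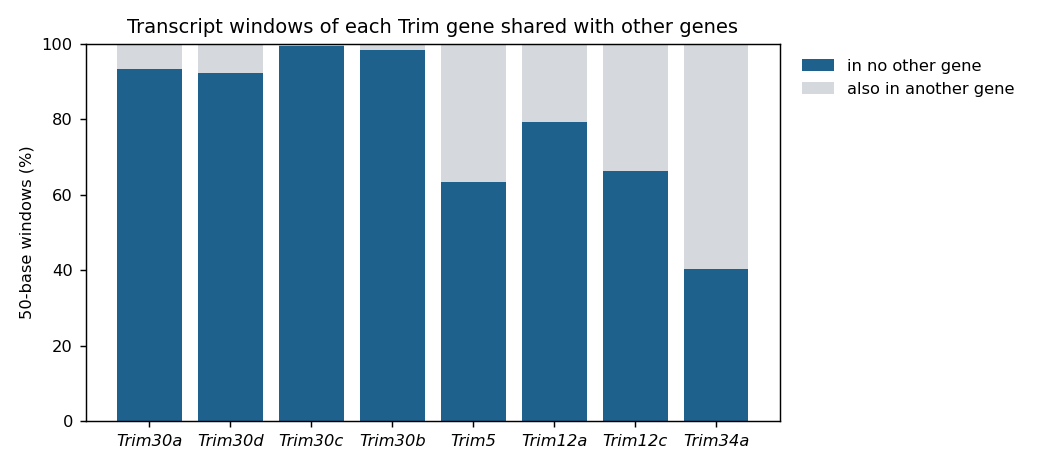
Share (%) of the distinct 50-base stretches of each gene's transcripts that occur in no other gene's transcripts (blue) or also in another gene's (grey). The Trim30 genes lie above 90%, Trim12a at 79.2%, Trim12c at 66.3%, Trim5 at 63.4% and Trim34a at 40.3%.

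In WT cells Trim30a was the most abundant member per exon length. In CD8 WT the levels in CPM per kb of exon were 138 ± 10.3 (SD, n = 2) for Trim30a, 70.5 ± 1.83 for Trim12a, 30.4 ± 4.04 for Trim30d, 16.9 ± 6.11 for Trim34a and 6.69 ± 7.51 for Trim12c. Trim30c (3.08 ± 4.30), Trim30b (0.852 ± 1.21) and Trim5 (0.0299 ± 0.0137) were lowest. The first 4 of that order did not overlap in their libraries, while Trim12c, Trim30c and Trim30b could not be ordered beyond their spread. In NK WT the levels per kb were 126 ± 27.2 for Trim30a, 51.6 ± 5.58 for Trim12a and 33.8 ± 4.40 for Trim30d. Trim12c (13.5 ± 7.71), Trim34a (13.5 ± 0.411) and Trim5 (10.2 ± 1.91) followed. The libraries of Trim12c overlapped those of both others, while Trim34a and Trim5 did not overlap. Trim5 was thus among the detected members in NK WT and nearly absent from CD8 WT. In the mutants Trim12a led the order. Its level per kb exceeded that of Trim30a in 7 of 8 mutant libraries, the exception being the first NK KE library, and in 0 of 4 WT libraries. The ratio of Trim12a to Trim30a per kb was 0.383 to 0.528 in WT and 0.734 to 3.74 in mutant libraries. Trim30a in CD8 cells was used to choose the cluster, so this order is a description.

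**Figure D2:**
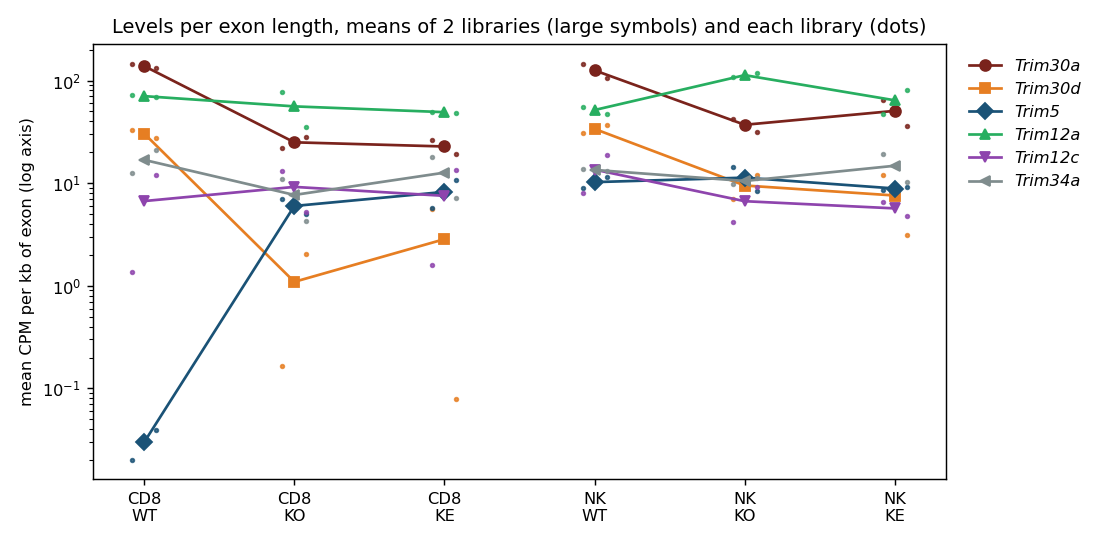
Mean CPM per kb of merged exon (log axis) of 6 members in each group, with each library as a dot. Trim30a leads in CD8 WT (138) and NK WT (126), Trim12a has the highest mean in the 4 mutant groups, and Trim5 in CD8 WT lies at 0.0299. Trim30b and Trim30c, with libraries at 0, are not drawn.

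In CD8 cells Trim30a and Trim30d were lower in the mutants, and Trim5 was present in the mutants and nearly absent from WT. Trim30a had 549 and 494 CPM in WT. The KO libraries had 83.2 and 105 CPM, the KE libraries 99.3 and 72.5 CPM. All 4 mutant libraries lay below both WT libraries, with 18.1% of the WT mean in KO and 16.5% in KE. On the log2 scale the fitted difference was -2.47 (SE 0.35) in KO and -2.60 (SE 0.35) in KE. Both mutants share the same WT libraries, here and throughout.

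Trim30d, the neighbour of Trim30a, had 125 and 104 CPM in CD8 WT. Its KO libraries had 0.615 and 7.60 CPM, its KE libraries 21.1 and 0.295 CPM. The groups did not overlap, but the mutant libraries differed among themselves by a wide margin: KO held 8 and 91 raw counts, KE 253 and 4. On the log2 scale KO differed from WT by -4.80 (SE 1.65), KE by -3.42 (SE 1.54). Without the second KO library the first was -7.53, and without the first KE library the second was -8.55. Over all left-out libraries the KO difference lay between -7.53 and -3.90 and the KE difference between -8.55 and -2.42. Trim30d made up 16.7% to 18.5% of the summed level of the Trim30 genes in CD8 WT and 0.404% to 16.2% in the mutants. The sum of the Trim30 genes was 648 ± 37.6 CPM (SD, n = 2) in CD8 WT, and 98.4 ± 20.7 CPM (KO) and 101 ± 40.4 CPM (KE) in the mutants.

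Trim30b and Trim30c were seen in few libraries. Trim30b had 175 counts in the second CD8 WT library and 0 counts in the other 11 libraries. Trim30c had 1 and 144 counts in CD8 WT, 0 and 0 in CD8 KO, and 114 and 1 in CD8 KE. In both genes the replicates of a group differed more than the groups did, so no fold is given.

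Trim5 had 1 and 2 counts in CD8 WT, 333 and 223 counts in KO, and 256 and 534 counts in KE. As levels these are 0.0747 and 0.146 CPM in WT against 18.6 to 39.3 CPM in the 4 mutant libraries, none of which overlap WT. The ratio of the pooled levels was 201 in KO (exact 95% counting interval 68.4 to 978) and 279 in KE (95.1 to 1356). These intervals cover counting error only. PCR reads without molecular identifiers are not independent molecules. The level in the CD8 mutants was of the size seen in NK cells of every genotype, 31.0 to 52.5 CPM, with 1 CD8 mutant library within that range (39.3 CPM) and 3 below it (18.6 to 25.6 CPM).

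The other relatives of Trim5 did not show its pattern. Trim12a had 156 and 150 CPM in CD8 WT, 167 and 76.1 CPM in KO, and 108 and 105 CPM in KE. Trim12c had 5.15 and 44.9 CPM in WT, 49.0 and 19.8 CPM in KO, and 5.92 and 50.4 CPM in KE, so that replicates of a group differed more than 2-fold throughout. Summed, Trim5, Trim12a and Trim12c had 178 ± 24.2 CPM (SD, n = 2) in CD8 WT, and 178 ± 89.7 CPM (KO) and 165 ± 42.3 CPM (KE) in the mutants. The share of Trim5 in that sum was 0.0464% and 0.0749% in the WT libraries and 10.6% to 20.2% in the mutant libraries. Trim34a had 32.5 and 54.9 CPM in WT, 28.7 and 11.1 CPM in KO, and 46.9 and 18.8 CPM in KE. Its KO libraries lay below both WT libraries and its KE libraries did not.

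Over the 8 members, 2 had all 4 CD8 mutant libraries below both WT libraries (Trim30a and Trim30d) and 1 above (Trim5). Of all genes tested, 7.52% lay below and 6.8% above in that way. The choice of the cluster used this contrast, so nothing is read from those counts. The myeloid markers summed to 217 and 192 CPM in CD8 WT and to 52.3 to 567 CPM in the CD8 mutants, which overlap. The neutrophil markers summed to 14.3 and 12.1 CPM in CD8 WT and to 0 in the CD8 mutants, with S100a8, S100a9, Retnlg and Csf3r at 0 in all 6 libraries, and the stromal markers to 18.4 and 36.1 CPM in WT and at most 5.01 CPM in the mutants. The tumour epithelial markers moved the other way, with 1.94 and 0 CPM in WT and 3.00 to 26.8 CPM in the mutants, Krt8 and Krt19 being at 0 in all 6 libraries. The part of such cells in the CD8 values was not tested.

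**Figure D3:**
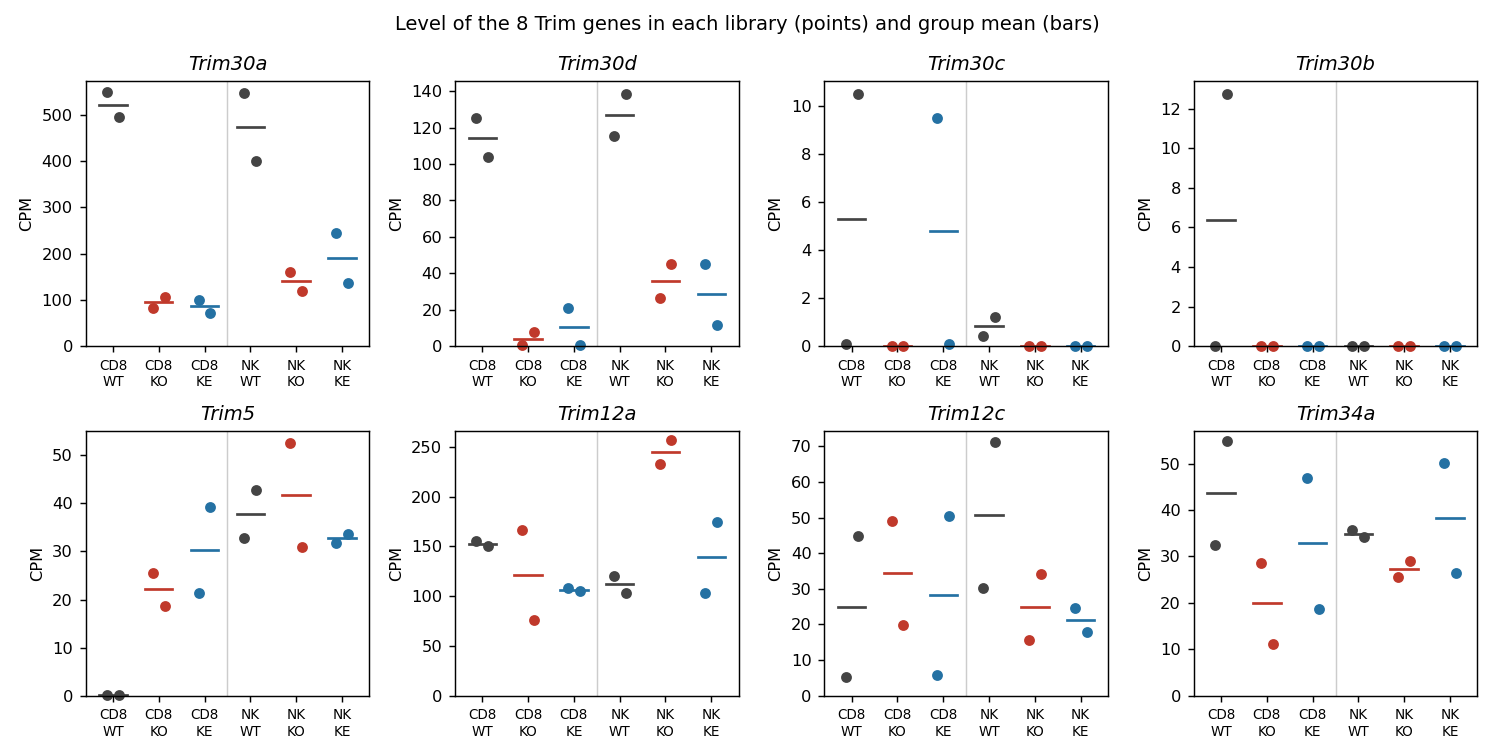
Level (CPM, linear axes that start at 0 and differ between panels) of each of the 8 genes in the 12 libraries. Points are libraries and bars are means of 2. Trim30a and Trim30d lie lower in all mutant libraries of both cell types, and Trim5 is near 0 in CD8 WT alone.

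NK cells were not used to choose the cluster. A call needed an FDR under 0.05 by edgeR's quasi-likelihood test over all genes and at least a 2-fold difference. In NK cells Trim30a, Trim30d and Trim30c had lower values in the mutants, none of them called by edgeR on the filtered genes, and Trim5 had like values in all genotypes. Trim30a had 546 and 401 CPM in NK WT, 160 and 120 CPM in KO, and 245 and 137 CPM in KE. Every mutant library lay below both WT libraries. The log2 difference was -1.76 (SE 0.34, 95% interval -2.51 to -1.01) in KO, with an unadjusted p of 0.000348 and an FDR of 0.385 in edgeR. In KE it was -1.31 (SE 0.33, interval -2.05 to -0.57), with an unadjusted p of 0.00263 and an FDR of 0.449. For KO and KE together it was -1.54 (SE 0.27, FDR 0.0923). Trim30a was called by DESeq2, with an adjusted p of 0.000587 in KO, 0.0219 in KE and 0.000372 together. With all genes of at least 1 count in edgeR it was called in KO (FDR 0.00238) and together (FDR 0.000254). Across all settings and left-out libraries the log2 difference lay between -1.98 and -1.52 in KO and between -1.79 and -0.95 in KE. Adjusted p ranged from 0.000587 to 0.906 in KO and from 0.0219 to 0.959 in KE.

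Trim30d had 115 and 139 CPM in NK WT, 26.2 and 45.1 CPM in KO, and 45.2 and 11.8 CPM in KE. All 4 mutant libraries lay below both WT libraries here too. The log2 difference was -1.83 (SE 1.44, FDR 0.881) in KO and -2.16 (SE 1.46, FDR 0.852) in KE, neither of them called, with intervals of -5.03 to 1.37 and -5.39 to 1.08. Without the first KE library the KE difference was -3.43. Over all left-out libraries it lay between -3.43 and -1.49 in KE and between -2.28 and -1.49 in KO. Unlike in CD8 mutants, no NK mutant library was near 0 for Trim30d, the lowest raw count being 159. Trim30c had 5 and 16 counts in NK WT and 0 counts in all 4 NK mutant libraries, and Trim30b had 0 counts in all 6 NK libraries. The Trim30 genes summed to 602 ± 85.5 CPM (SD, n = 2) in NK WT, and 175 ± 14.9 CPM (KO) and 220 ± 99.7 CPM (KE) in the mutants.

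Trim5 had 32.8 and 42.8 CPM in NK WT, 52.5 and 31.0 CPM in KO, and 31.9 and 33.6 CPM in KE. The libraries of the 3 genotypes overlapped. The log2 difference was 0.14 (SE 0.81, interval -1.66 to 1.95) in KO and -0.21 (SE 0.81) in KE, so differences of 2-fold in either direction lay within the KO interval. In CD8 cells the fitted differences of the same gene were 7.52 (SE 1.12) and 7.98 (SE 1.14). The difference between the cell types was not tested, because its CD8 part was used to choose the gene.

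Trim12a had 120 and 103 CPM in NK WT, 232 and 257 CPM in KO, and 103 and 175 CPM in KE. Both KO libraries lay above both WT libraries, and 1 KE library lay with the WT libraries. The log2 difference was 1.13 (SE 0.40, interval 0.25 to 2.01) in KO, with an unadjusted p of 0.0171 and an FDR of 0.759 in edgeR, and 0.31 (SE 0.39, FDR 1.00) in KE. Under no setting was it called. Trim12c had 30.3 and 71.1 CPM in NK WT, 15.7 and 34.2 CPM in KO, and 24.5 and 18.0 CPM in KE, with log2 differences of -1.02 (SE 1.23) and -1.25 (SE 1.23). With 1 library left out these lay between -1.69 and -0.28 in KO and between -1.74 and -0.51 in KE. Trim34a had 35.6 and 34.1 CPM in NK WT, 25.5 and 29.0 CPM in KO, and 50.1 and 26.5 CPM in KE, with log2 differences of -0.36 (SE 0.82) and 0.14 (SE 0.82).

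In counts, 0 of the 8 members were called in NK KO against WT, where 0% of all genes were called, and in NK KE against WT, also 0%. For both mutants together 0 members were called, where 0.0301% of all genes were. At an unadjusted p under 0.05 edgeR had 2 members in KO (Trim30a lower and Trim12a higher; 6.3% of all genes), 1 in KE (Trim30a; 6.02%) and 1 for both together (Trim30a; 9.01%). DESeq2 called 1 member, Trim30a, in each of the 3, where it called 2.85%, 2.93% and 3.37% of all genes. edgeR without the filter on low counts, which also called Trim30a, called 0.823% of all genes in KO and 1.58% for both together. All 4 mutant libraries lay below both WT libraries in 3 members (Trim30a, Trim30c and Trim30d) and above in 0, where 10.8% and 7.06% of all genes did. Trim30c had only 21 counts in the NK libraries, and it and Trim30b passed the filter through CD8 libraries. The median log2 difference over the 7 members with a count in the NK libraries was -1.02 in KO and -1.25 in KE, and with Trim30b entered at 0 it was -0.69 and -0.73. The medians over all genes tested were -0.012 and 0.

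**Figure D4:**
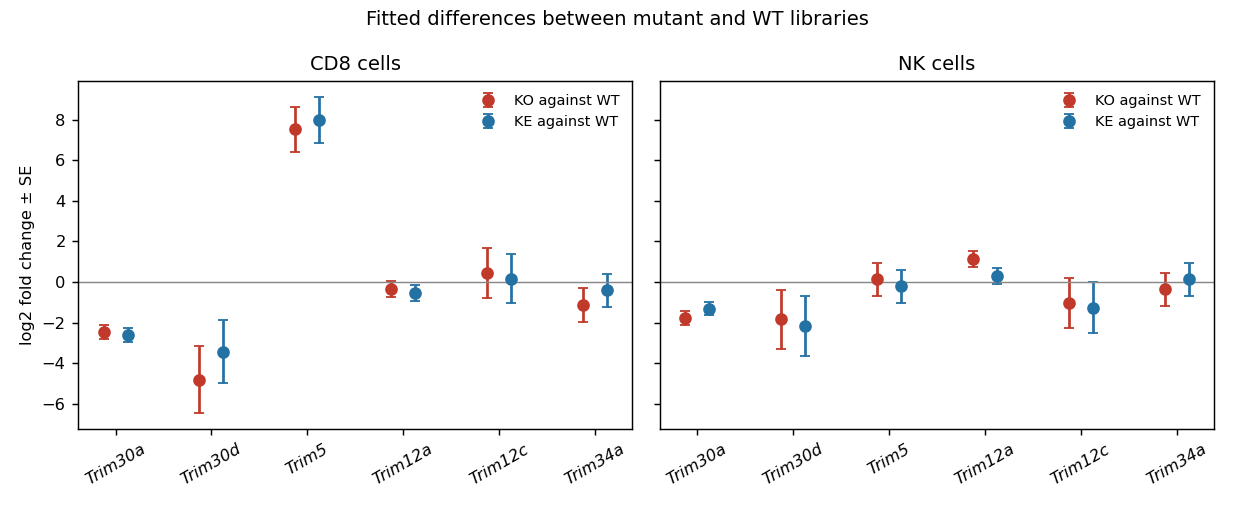
Fitted log2 fold change (error bars ± SE, 12 libraries in 1 model) of 6 members for KO and KE against WT, in CD8 cells (left) and NK cells (right). Trim30a lies below 0 in all 4 contrasts (-2.47, -2.60, -1.76 and -1.31), and Trim5 lies near 8 in CD8 cells, where the WT libraries held 1 and 2 counts, and near 0 in NK cells. The CD8 values are a description.

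The NK libraries also differed in markers of other cell types. The 11 myeloid markers, among them Csf1r, Adgre1 and C1qa, summed to 12359 and 14888 CPM in NK WT and to 25.4 to 6671 CPM in the NK mutants. Of the 11, 11 had a lower mean in the NK mutants and 0 were at 0 counts in every NK library. The neutrophil markers summed to 6.26 and 6.66 CPM in NK WT and up to 0.0918 CPM in the mutants, with S100a8, S100a9 and Retnlg at 0. The T cell markers had 42.2 and 99.3 CPM in NK WT, 48.3 and 294 CPM in NK KO, and 169 and 317 CPM in NK KE. Only Cd3e, Cd3d and Cd3g carried the higher sums. Means in NK WT, KO and KE were 3.59, 3.64 and 3.53 CPM for Cd8a and 1.77, 2.15 and 1.71 CPM for Cd8b1. The NK markers summed to more in the mutants, from 2360 and 3006 CPM in WT to 3535 to 4784 CPM in the mutants. Klrb1c and Ncr1 were higher in every mutant library. Klra8 (means of 405, 511 and 378 CPM in WT, KO and KE) and Eomes (152, 183 and 193 CPM) overlapped between genotypes. Within NK KO the myeloid sum was 6671 CPM in the first library and 25.4 CPM in the second, where Trim30a had 160 and 120 CPM. The part of cells of other types in the NK values of the Trim genes was not tested. In sorted bulk samples fewer cells of a type and less RNA per cell cannot be told apart. In CD8 WT, where the myeloid markers summed to 217 and 192 CPM, Trim30a was at 549 and 494 CPM. These CD8 values helped to choose the cluster, so they are a description and nothing is read from them about the NK values.

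The 2 mutants were also set against each other, to ask whether a TYK2 protein without kinase activity differs from none. No member was called in NK cells or CD8 cells, where 0% of all genes were called in each. At an unadjusted p under 0.05 edgeR had 0 members in either cell type, beside 3.81% of all genes in NK cells and 3.63% in CD8 cells. Only 6 members in NK cells and 7 in CD8 cells had a count in the mutant libraries and could differ. The CD8 mutant values of Trim30a and Trim5 had been used to choose the cluster, so their CD8 differences are a description and 5 members remain as a test there. DESeq2 also called 0, where it called 1.54% and 1.18% of all genes. The log2 difference of KO from KE for Trim30a was -0.45 (interval -1.18 to 0.28) in NK cells and 0.13 (interval -0.59 to 0.86) in CD8 cells. For Trim30d it was 0.32 (interval -2.79 to 3.43) in NK cells and -1.38 (interval -4.58 to 1.82) in CD8 cells. Trim12a had 0.82 (interval -0.063 to 1.69) in NK cells and 0.19 (interval -0.69 to 1.06) in CD8 cells, and Trim5 had 0.35 (interval -1.46 to 2.16) and -0.46 (interval -2.27 to 1.35). These intervals are too wide to show that the mutants act alike.

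Between the WT cell types, Trim5 had a near-zero level in CD8 WT and not in NK WT, and none of the 6 members tested was called. Trim5 had 952 pooled counts in NK WT against 3 in CD8 WT, a ratio of levels of 343 (exact 95% counting interval 117 to 1667), and Trim30a differed by -0.14 (SE 0.33) on the log2 scale. Both are descriptions, because the CD8 WT libraries helped to choose them. Of the other 6 members, 0 were called in NK WT against CD8 WT, where 0.776% of all genes were, and 0 had an unadjusted p under 0.05 in edgeR, where 10.3% did. DESeq2 also called 0, of 6.2% of all genes. The log2 differences of NK from CD8 were 0.15 (SE 1.40) for Trim30d, -0.45 (SE 0.39) for Trim12a, 1.02 (SE 1.23) for Trim12c and -0.33 (SE 0.82) for Trim34a. Trim12a was lower in both NK libraries than in both CD8 libraries, and the difference of Trim12c ranged from 0.18 to 3.32 when 1 library was left out. Trim30b had 175 counts in CD8 WT, all in 1 library, and 0 in NK WT, and Trim30c had 145 and 21, so like levels are not shown.

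Other Trim genes gave a reference for the cluster. Of 5 further Trim genes on this part of chromosome 7, Trim6 had at most 1 count in any library and was not tested. Trim34b, the near copy of Trim34a, had counts above 3 in 3 libraries only (74 in CD8 WT, 36 in NK WT and 30 in NK KE). Of the 5, 4 were tested, and edgeR called 0 in NK KO or KE against WT, with 0 at an unadjusted p under 0.05. Among them Trim68 had 23.1 and 25.9 CPM in NK WT and 4.85 to 18.8 CPM in the NK mutants. Of 5 interferon-responsive Trim genes elsewhere (Trim14, Trim25, Trim26, Trim38 and Trim56), 4 were tested and 0 called, with 1 at an unadjusted p under 0.05. Trim25, which acts on the RNA sensor RIG-I, was that gene, in NK KE (unadjusted p 0.00661, log2 difference -2.72, SE 0.80, FDR 0.572). It had 80.4 and 111 CPM in NK WT and 5.42 to 33.9 CPM in the NK mutants, KO included. Trim68 and Trim25 thus had all mutant libraries below both WT libraries, as 10.8% of all genes did. The other tested genes of these sets overlapped WT. Of 51 remaining Trim genes, 22 were tested and 0 were called in NK KO or KE, with 0 at an unadjusted p under 0.05 in either. Beside these sets of Trim genes, 0% of all genes were called in NK KO and in NK KE, and 6.3% and 6.02% had an unadjusted p under 0.05. The median log2 difference of the 22 genes was 0.61 in KO and 0.21 in KE. For the 4 tested genes of this part of chromosome 7 it was -2.95 in KO and -0.44 in KE, with 3 of them lower in each. Of these, Trim34b, Trim21 and Trim3 each had an NK WT library at 0 counts. For the 4 interferon-responsive genes tested elsewhere the median was 0.24 in KO and 0.17 in KE.

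The 15 genes of interferon receptor signaling, all tested, had 0 calls in NK KO and in NK KE by edgeR. At an unadjusted p under 0.05, 2 of the 15 were lower in KO and 5 in KE, and 0 were higher, beside 6.3% and 6.02% of all genes in either direction. The myeloid markers were lower in the NK mutants too, and their part in the values of this list was not tested. Ifngr2 had means of 69.5, 9.79 and 0.157 CPM in NK WT, KO and KE, and Irf8 had 1506, 739 and 788 CPM. Irf7, a transcription factor that interferon induces and that amplifies its response, had 605 and 449 CPM in NK WT and 96.1 to 146 CPM in the NK mutants (log2 difference -2.41, SE 0.67, FDR 0.590 in KO, and -1.95, SE 0.66, FDR 0.675 in KE). Usp18, a feedback inhibitor of the interferon receptor, had 280 and 275 CPM in NK WT and 7.82 to 69.0 CPM in the mutants (-2.85, SE 1.31, FDR 0.765, and -3.72, SE 1.36, FDR 0.731). Both genes had their mutant libraries below their WT libraries, as Trim30a did. The 8 reported partners of TRIM30a and its relatives, among them Tab2, Tab3 and Traf6, had 0 calls in NK KO and in NK KE, with 1 at an unadjusted p under 0.05 (Nlrp3, in KO). Nlrp3 had 267 and 40 counts in NK WT and at most 1 count in the other 10 libraries, so it passed the filter through NK WT alone and its p is not read further.

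The genes whose log2 CPM followed that of Trim30a most closely over the 12 libraries were Ifi209 (Pearson's r = 0.973), Lgals9 (0.937), Mgarp (0.913), Zfp661 (0.903) and Ifi47 (0.896). Ifi209 belongs to a family of interferon-induced DNA-binding proteins, Lgals9 encodes galectin-9 and Ifi47 an interferon-induced GTPase. Mgarp and Zfp661 had 0 counts in the CD8 mutants and at most 1 count in the NK mutants. Their r thus mainly reflects near absence from the mutant libraries. Within the 6 NK libraries r was 0.864 to 0.970 and within the 6 CD8 libraries 0.951 to 0.989. Ifi209 had 407 and 569 CPM in CD8 WT and at most 122 CPM in the CD8 mutants, and 530 and 351 CPM in NK WT and 96.9 to 234 CPM in the NK mutants. For Trim5 the closest genes were Arrdc4 (0.970), Uqcc1 (0.948), Casc3 (0.924), Gm20743 (0.922) and Ankrd27 (0.920). Within the CD8 libraries these had r of 0.906 to 0.995, but within the NK libraries -0.22 to 0.41. Arrdc4 had 0 and 1 counts in CD8 WT and 318 to 935 counts in the CD8 mutants. The points share libraries and depth, and the genes were the highest of 13279, so the coefficients are descriptions.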

How the data were processed

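RNA was measured in 12 libraries, 2 in each of 6 groups taken from the sample titles. The authors made cDNA by Smart-seq2, trimmed single-end reads of 50 bases with Trimmomatic, aligned them to mm10 (GRCm38) with STAR and counted uniquely aligned reads in exons with summarizeOverlaps. Each deposited value is such a raw count per gene, not normalized or pooled.

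Counts were tested with edgeR 4.0.16 (R 4.3.3): TMM normalization, robust quasi-likelihood F-test, two-sided, 1 model with a mean per group over all 12 libraries, and a filter that kept the 13279 genes whose normalized counts averaged 10 or more. Unless another tool is named, an adjusted p or FDR is from that test by Benjamini-Hochberg over all genes tested. Calls required FDR under 0.05 with a log2 fold change of 1 or more in size. SE was obtained from the fold change and the square root of F. For log2 CPM the prior count was 2. Intervals of log2 fold changes are 95% intervals. DESeq2 1.42.0, RLE size factors, no filter, fits of 1 cell type, a replicate block and left-out libraries were alternatives. The edgeR step was tested on simulated data.

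Merged exon lengths, positions and transcripts came from GENCODE M21 (GRCm38), a later release than the authors' annotation. Promoter windows came from RefSeq. The planned comparison of proteins was not made, and a further motif search is not reported here. The named genes were all 8 members, the genes of the lists fixed for this work, and the 5 genes with the highest r to Trim30a and to Trim5. The members and lists were chosen with earlier results of these data known.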

Additional observations from a re-analysis of the deposited data

How the results depend on the processing

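Trim30b, Trim30c and the CD8 WT level of Trim5 rest on few counts or few libraries, and each group on 2 libraries. Of the 8 members, 0 were called by edgeR in NK KO, in NK KE and in both together against WT. DESeq2 called 1 (Trim30a) in each of these 3, and edgeR on all genes with at least 1 count called 1 (Trim30a) in KO and 1 in both together. Over all genes, calls went from 0 to 379 with DESeq2 and to 195 without the filter in NK KO, from 0 to 389 and 256 in NK KE, from 4 to 448 and 374 in both together, and from 103 to 823 and 537 in NK WT against CD8 WT. For KO against KE they went from 0 to 205 and 96 in NK cells and to 157 and 82 in CD8 cells. The cause was not tested. RLE size factors, fits of 1 cell type and left-out libraries left 0 members called in the 6 tested comparisons (NK KO, NK KE and both against WT, KO against KE in either cell type, and NK WT against CD8 WT), where they could be fitted. The CD8 mutants against WT are described without calls. Left-out libraries gave a range of 0 to 0. The fit of 1 cell type gave no value for NK WT against CD8 WT.

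Leaving out 1 library turned the sign of small or widely spread log2 differences, none of them called. For KO against WT the ranges were -0.28 to 0.47 (Trim5, NK), -0.40 to 2.74 (Trim12c, CD8) and -0.995 to 0.11 (Trim12a, CD8). For KE against WT they were -0.40 to 0.52 (Trim34a, NK), -0.12 to 0.64 (Trim12a, NK), -2.07 to 2.45 (Trim12c, CD8) and -1.22 to 0.11 (Trim34a, CD8). For KO against KE in NK cells they were -0.81 to 0.027 (Trim30a), -0.34 to 1.596 (Trim30d) and -0.075 to 0.68 (Trim5), and in CD8 cells -0.090 to 0.38 (Trim30a), -4.13 to 3.76 (Trim30d), -0.48 to 0.62 (Trim12a) and -0.83 to 0.032 (Trim5). For NK WT against CD8 WT they were -0.38 to 0.066 (Trim30a) and -0.65 to 0.12 (Trim34a). The value of 3.76 came without the first CD8 KE library, which held 253 of the 257 KE counts of Trim30d. No setting other than a left-out library turned a sign.

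The replicate numbers did not pair the libraries: deviations from group means of equally numbered libraries correlated at -0.025 to 0.038. With the replicate block 0 members were called in each of the 6 comparisons, and the calls over all genes went from 4 to 1 for NK KO and KE together.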
